A study of Mus musculus with 5 samples.

Results

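The members described here were the cytosolic ribosomal proteins, the protein building blocks of the ribosomes that translate nuclear-encoded messages. They were chosen by name alone: probe sets whose single platform gene symbol was Rpl or Rps followed by a digit, or Rplp0, Rplp1, Rplp2 or Rpsa, with ribosomal S6 kinases, pseudogenes and symbols ending in l1 left out. The rule found 101 of 45037 probe sets, which stood for 47 of 18193 genes: 22 of the large subunit, 2 of the acidic P stalk (Rplp0 and Rplp2) and 23 of the small subunit. Of these genes, 24 had 1 probe set and 23 had 2 or more, with up to 6 for 1 gene.

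The study profiled splenic CD4 T cells of BALB/c mice on Affymetrix arrays. It had 5 groups and a single array in each: naive CD4 T cells, control effector Th1 cells, effector cells labelled Rap (an abbreviation the labels do not expand), effector cells labelled TOFA (an inhibitor of acetyl-CoA carboxylase, the enzyme that makes malonyl-CoA for fatty acid synthesis) and memory Th1 cells. The labels give all 5 samples the same culture, 5 days under Th1 conditions with IL-12 at 10 ng/ml and IL-2 at 15 ng/ml, although the names of the naive and memory samples do not describe cultured cells. No genetic change, dose of inhibitor, animal age or pooling of animals is given in the labels. Without a second array in any group there was no replicate and no test: every difference below compares 2 arrays, and its error could not be estimated.

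Each ribosome carries a single copy of most of these proteins, and the cell makes them in step with ribosomal RNA, so their messages are among the most abundant in any growing cell. Their messages begin with a C and a run of pyrimidines, the 5′ terminal oligopyrimidine (TOP) motif, through which the kinase mTORC1 and the RNA-binding protein LARP1 set how strongly they are translated; that control acts largely on translation, which an RNA array does not measure. Resting T cells hold few ribosomes, and activation through the antigen receptor raises ribosome production strongly. Some members have further roles: free Rpl5 and Rpl11 bind MDM2 and stabilize p53, Rpl22 is needed for the normal development of alpha-beta T cells, and Rps27l is a p53 target gene.

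Signals were linear intensities, quantile normalized across the 5 arrays, and differences are on the log2 scale. A floor of 43.4, the 40th percentile of all signals, stood in for lower values. Genes were called higher or lower from a 2-fold difference. A gene was represented by its probe set with the highest signal. Signals of different probe sets depend on the probes as well as on the RNA, so they were never set against each other as amounts. In bulk RNA, fewer cells of a type and less RNA per cell cannot be told apart.

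The labels were checked against marker genes, whose signals were summed over each list. Cell cycle markers (5 of 6 measured) summed to 48143.9 to 60059.4 on the 3 effector arrays, against 1753.1 on the naive and 2427.1 on the memory array. T cell markers (7 of 10 measured) summed to 43074.8 to 70539.2, with none at the floor on any array. Macrophage markers (9 of 10 measured) summed to 102493.7 on the memory array, with none at or under the floor, against 3165.6 on the naive array and 283.7 to 339.1 on the effector arrays, where 6 of 9 were at or under it. The complement gene C1qa had a signal of 16549.6 on the memory array and 1.85 to 7.72 on the other 4. B cell markers (9 of 10 measured) summed to 59443.9 on the memory and 33374.5 on the naive array, against 2074.8 to 2901.6 on the effector arrays. Neutrophil markers (6 of 6 measured) summed to 12449.1, 5540.1 and 147.4 to 182.8 in the same order, and erythroid markers (3 of 6 measured) to 2600.5, 93.6 and 25.5 to 32.1. These sums moved with every contrast that included the naive or the memory array, and their part in the ribosomal protein differences was not tested.

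The windows around annotated transcription starts were searched for pyrimidine runs like that of the TOP motif. RefSeq (build GRCm38.p6) gave windows for 41 of the 47 genes, 49 windows in all, each of 300 bases. A pyrimidine run, here a C followed by at least 4 further C or T on the coding strand and beginning at most 10 bases from the start on either side, was found in 27 of 49 windows, 55.1%, against 30.7% of 32851 windows of all genes. A match is a description of the letters and not a measured start. A run can also end before the annotated start, as that of Rps27l below does. Such a run would not be part of a message beginning at that start. The following 30-base stretches, 10 bases before the annotated start and 20 from it, are of members with steady signals and runs (Rpl38 and Rplp2), of members past 2-fold in a comparison (Rpl12, Rps27 and Rps27l) and of 1 member without a run (Rps3a1), with the run in capitals. Rps27l has 2 annotated starts in the table, and the upstream one is shown; the other has no run.
Rpl38, chr11:114668570-114668599, plus strand: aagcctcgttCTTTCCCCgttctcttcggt
Rplp2, chr7:141447641-141447670, plus strand: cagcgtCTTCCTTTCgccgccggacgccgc
Rpl12, chr2:32961702-32961731, plus strand: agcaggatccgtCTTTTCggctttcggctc
Rps27, chr3:90213629-90213658, minus strand: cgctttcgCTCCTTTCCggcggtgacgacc
Rps27l, chr9:66946076-66946105, plus strand: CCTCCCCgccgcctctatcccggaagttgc
Rps3a1, chr3:86142649-86142678, minus strand: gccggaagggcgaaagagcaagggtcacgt

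Most ribosomal protein genes were near the top of the signal range on every array. The mean signal over the 5 arrays was 20000 or more for 34 of the 47 genes, between 26933.1 and 54921.2, all at or above the 99.6th percentile of probe sets. These 34 are called bright below. A further 11 genes (Rpl12, Rpl14, Rpl27a, Rpl37, Rpl39, Rpl39l, Rps25, Rps27, Rps27l, Rps4l and Rps6) were dimmer, with means of at most 10319.8, and Rpl3l and Rps16 were under the floor on all 5 arrays. Among the bright genes the distance between the highest and the lowest of the 5 arrays was 0.03 to 0.39 on the log2 scale, with a median of 0.18.

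**Figure D1:**
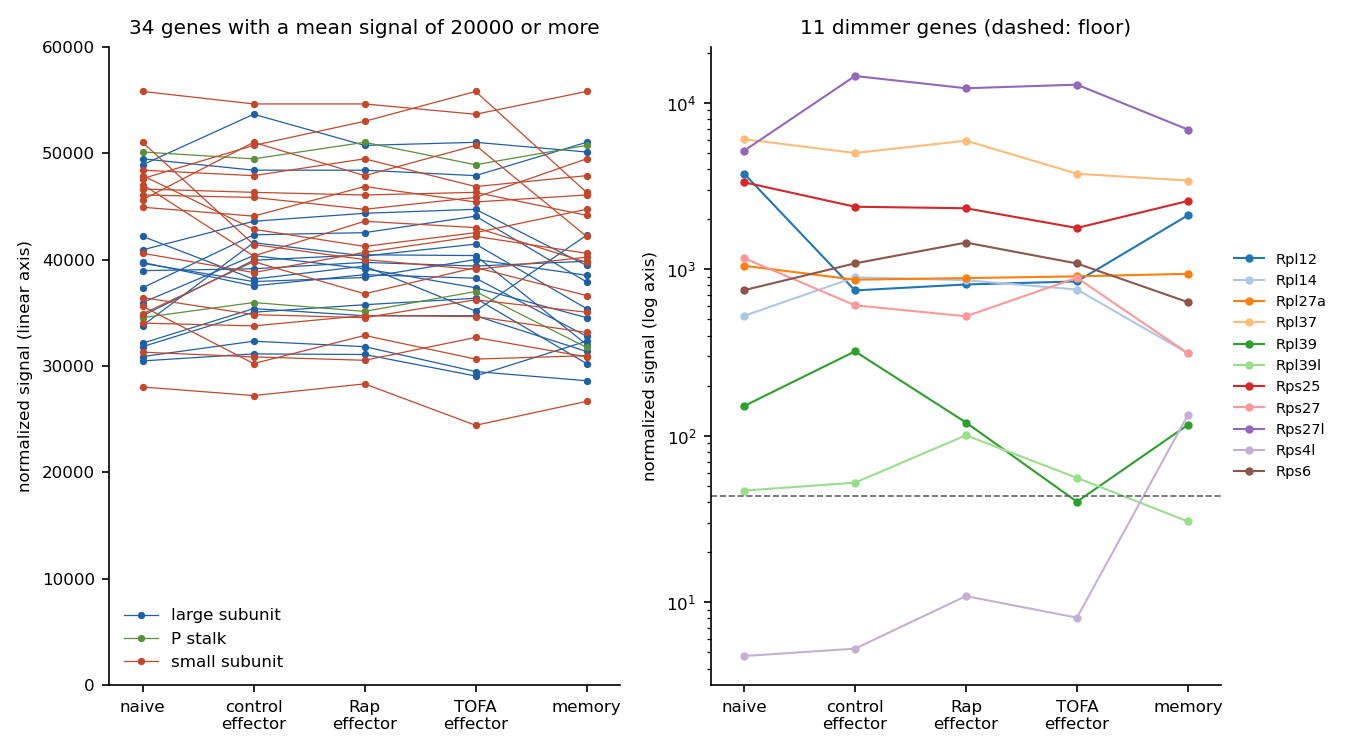
Normalized signal of ribosomal protein genes on the 5 arrays, 1 line per gene: the 34 bright genes on a linear axis (left) and the 11 dimmer genes on a log axis with the floor of 43.4 dashed (right); lines only join the values of a gene. The bright genes lie in a flat band above 20000, while dimmer genes such as Rps27l, Rpl12 and Rpl39 cross a wider range.

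The signals of the bright genes lay close to the top of what the arrays reported. As deposited, the bright genes reached 42 to 100% of the highest signal on their array, with medians of 63.4 to 75.1%, and the highest signal of the naive and memory arrays was that of Rps29 itself. How far the arrays' response is compressed or saturated at this level was not tested, and the deposited values do not mark saturated spots, so small differences of bright genes do not show that their RNA was steady. Quantile normalization also gives genes of equal rank equal signals. Single members show the size of the differences. Rplp0, the P stalk base that anchors the acidic proteins recruiting translation factors, had normalized signals of 34547.4 on the naive, 35969.2 on the control effector, 35136.1 on the Rap, 37005.2 on the TOFA and 31752.4 on the memory array. Rplp2, an acidic stalk protein, had 50125.8, 49484.2, 51036.7, 48924.8 and 50747.0 on the same arrays. No array stood apart for either gene. Rps29, a small zinc-binding protein of the small subunit head, had 55818.9 on the naive, 54646.4 on the control effector, 54646.4 on the Rap, 53675.5 on the TOFA and 55818.9 on the memory array. Rps19, the gene most often mutated in Diamond-Blackfan anaemia, had 36438.6, 34831.8, 34547.4, 36228.9 and 35060.0. Rpl38, needed for the translation of a set of Hox messages in the embryo, had 49484.2, 48415.2, 48415.2, 47901.0 and 51036.7. None of the 34 bright genes passed a 2-fold difference in any of the 6 comparisons.

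Between naive cells and control effector cells the ribosomal protein genes had close signals on both arrays while many other genes differed. Of 13062 genes compared, 15.9% were at least 2-fold higher and 11.4% at least 2-fold lower in control effector cells. Of the 44 ribosomal protein genes compared, 2 were higher (Rps27l and Rpl39) and 1 was lower (Rpl12), and the median difference was -0.01, against 0.03 over all genes. The differences of the 34 bright genes had a spread (SD over genes) of 0.13, from -0.30 to 0.30. The 58 other genes with mean signals of 20000 or more had a spread of 0.83 in the same comparison, with 7 of them at least 2-fold higher and 2 lower. Most of those 58 had lower signals than the members. The 20 that reached the lowest mean of a bright member, a limit set after the values were seen, had a spread of 0.54, with 1 at least 2-fold higher. Their median mean signal was 33042.7, against 39433.1 for the bright members.

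The direction of the group as a whole depended on how the arrays were scaled. With the signals as deposited, the median over the ribosomal protein genes was -0.15, against -0.05 over all genes, and 30 of the 34 bright genes were below 0. Quantile normalization gives the top ranks the same signals on every array, so it can remove a shift that all top genes share. The spread of 0.14 among bright genes with the deposited signals was close to the 0.13 after normalization.

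Within the bright genes, the large subunit median lay above the small subunit median between control effector and naive cells. Gene by gene the subunits overlapped (large -0.14 to 0.30, small -0.30 to 0.19). In control effector minus naive cells, 12 of 17 large subunit genes, the P stalk included, were above 0 with a median of 0.07, and 14 of 17 small subunit genes were below 0 with a median of -0.03. The gap of 0.09 between these medians became 0.13 with the deposited signals. Division by the array median shifts all bright genes alike, so it leaves that 0.13 unchanged. The signs themselves depended on the scaling, since 3 of 17 large and 1 of 17 small subunit genes were above 0 with the deposited signals. Without replicates, a gap of this size could not be set against an error. In the comparisons among effector arrays and in memory minus naive cells the normalized gap was -0.01 to 0.01.

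The outer members of that range were few. Rpl7a, a large subunit protein singled out after its values were seen, had 33807.9 on the naive and 41597.2 on the control effector array, a difference of 0.30. It had 40344.5, 41461.3 and 35399.4 on the Rap, TOFA and memory arrays, so all 3 effector arrays were above both others after normalization. Among its deposited signals the TOFA array, at 36233.3, was below the naive array at 36777.6 and the memory array at 36751.1. Rpl22, which binds RNA outside the ribosome too, had 37357.1 on the naive, 42337.6 on the control effector, 42540.9 on the Rap, 44093.9 on the TOFA and 37904.9 on the memory array. Its 2 bright probe sets differed by 0.18 and 0.21 between control effector and naive cells, and by 0.02 and 0.19 with the deposited signals. Rpsa, the small subunit protein also known as the laminin receptor, had 45638.6, 51036.7, 47901.0, 50747.0 and 42190.6, above both resting arrays on every effector array after normalization. That order turned in the deposited signals: Rpsa had 50950.3 on the naive array, above the 48279.7, 47638.8 and 44144.3 of the control effector, Rap and TOFA arrays.

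Small subunit genes made up the lower end. Rps3a1, which sits at the messenger exit of the small subunit, had 51036.7 on the naive array and 41426.6, 40011.5, 39078.2 and 40235.9 on the control effector, Rap, TOFA and memory arrays. The naive array was the highest, with the deposited signals too, and the other 4 were close together, with a control effector minus naive difference of -0.30. Rps15, a protein of the small subunit head, had 35618.5 on the naive array and 30229.4, 32873.4, 30650.9 and 30970.1 on the others, and its 2 bright probe sets differed by -0.32 and -0.24. Rps7 and Rps24 were singled out after their values were seen because they have several bright probe sets. Both of Rps7 differed by -0.22 in control effector minus naive cells, and the 4 of Rps24 by -0.26 to -0.13.

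**Figure D2:**
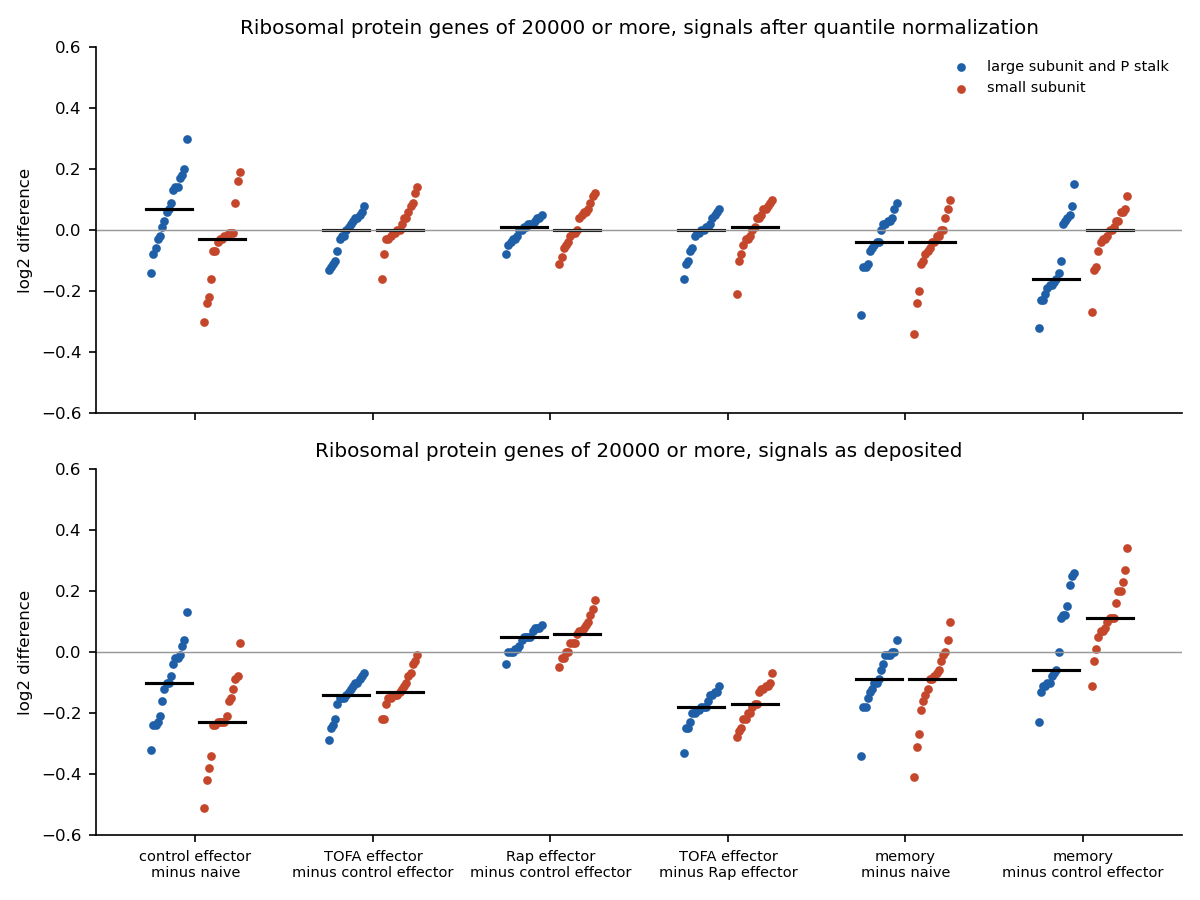
Log2 difference of the 34 bright ribosomal protein genes in each of the 6 comparisons, after quantile normalization (top) and with the signals as deposited (bottom), 1 point per gene in rising order, with large subunit and P stalk genes in blue, small subunit genes in red and medians as black bars. At the top all points lie between -0.34 and 0.30, and the subunit medians lie furthest apart in control effector minus naive (gap 0.09) and memory minus control effector cells (gap -0.16).

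Rps27l, the paralog of Rps27 and a p53 target, was the only member with 3 probe sets at least 2-fold apart in the same direction between control effector and naive cells. Its normalized signal was 5146.1 on the naive, 14479.0 on the control effector, 12222.1 on the Rap, 12847.8 on the TOFA and 6904.1 on the memory array. All 3 effector arrays were above both the naive and the memory array. The difference between control effector and naive cells was 1.49, a 2.81-fold higher signal, and its 3 probe sets gave 1.34 to 1.67. Rps27 itself, whose only probe set was dim, went the other way: 1167.6 on the naive, 607.7 on the control effector, 522.3 on the Rap, 889.4 on the TOFA and 312.5 on the memory array. Its control effector minus naive difference was -0.94, short of the threshold.

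Rpl12, a protein at the base of the P stalk, had the lowest difference. Its only probe set had 3758.9 on the naive array, 746.6, 810.7 and 845.3 on the control effector, Rap and TOFA arrays, and 2110.4 on the memory array. The 3 effector arrays were close to each other and below both others, and the control effector minus naive difference was -2.33, 5.03-fold. Rpl39, a very small protein lining the exit tunnel, had 150.9 on the naive and 321.5 on the control effector array, a difference of 1.09 at low signals. Rpl14 (525.2 and 895.2, a difference of 0.77) and Rps6 (748.9 and 1085.4, a difference of 0.54) followed without passing the threshold. Rps6 is the substrate of the S6 kinases. Its phosphorylation, the usual readout of mTORC1, is not measured by RNA arrays.

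Probe sets for 1 gene did not always go together, and the dim ones departed from the bright ones. Of the 101 probe sets, 61 were bright, 36 dimmer and 4 under the floor on all arrays. Names of Affymetrix probe sets carry a suffix: _x_at and _s_at mark probes shared with other transcripts, _a_at marks probes shared by transcripts of 1 gene, and _at alone marks probes unique to their target. The bright sets were 32 of the shared kinds, 23 ending _a_at and 6 ending _at, and the dimmer sets were 10, 4 and 22. Most bright values thus came from probe sets that are not unique to 1 transcript, and related sequences, processed pseudogenes among them, could add to them. Among bright probe sets the spread within a gene (SD) was 0.06 in control effector minus naive cells, against 0.52 over all ribosomal protein probe sets and 0.57 within genes of the whole array.

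The clearest departures were dim probe sets of genes that also had a bright one. Rpl41, the shortest ribosomal protein, had a bright probe set at 38967.5 on the naive and 39143.6 on the control effector array, a difference of 0.01. A dim one had 1910.5 on the naive, 479.7 on the control effector, 691.3 on the Rap, 665.2 on the TOFA and 848.9 on the memory array, a control effector minus naive difference of -1.99. Another had 2026.1, 591.4, 729.4, 895.2 and 1352.2, a difference of -1.78. The 3 effector arrays were the lowest for both dim sets while the bright set was flat.

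The dim sets of Rps18, Rps10 and Rps9, singled out after their values were seen, also had lower differences than the bright sets of these genes. Dim sets of Rps18 differed by -1.60, -1.39 and -0.88, while its 3 bright sets differed by -0.01 to 0.09. A dim set of Rps10 differed by -1.49 and a dim set of Rps9 by -1.12. Another dim set of Rps9, with a higher mean signal (901.5 against 352.1), differed by only -0.04, close to the -0.01 of its bright set. Rps3, a small subunit protein at the messenger entry that also acts in DNA repair, had a dim set in the other direction. That set had 503.0 on the naive, 1919.1 on the control effector, 1546.3 on the Rap, 1289.7 on the TOFA and 452.9 on the memory array, a difference of 1.93, while the bright set differed by -0.02. Of the 22 dim probe sets of genes with a bright one, 6 were at least 2-fold lower and 1 was higher, where 12.3% and 14.3% of all probe sets were. The 6 lower sets were selected on the control effector and naive arrays, so the order of those arrays was fixed. All 6 were below the naive array on the Rap, TOFA and memory arrays, an order that selecting on a high naive signal favours. For 5 of the 6, the 3 effector arrays were below the memory array as well. Selecting on a low control effector signal favours that order for the control effector array. Which transcript each dim set reads was not analysed here.

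**Figure D3:**
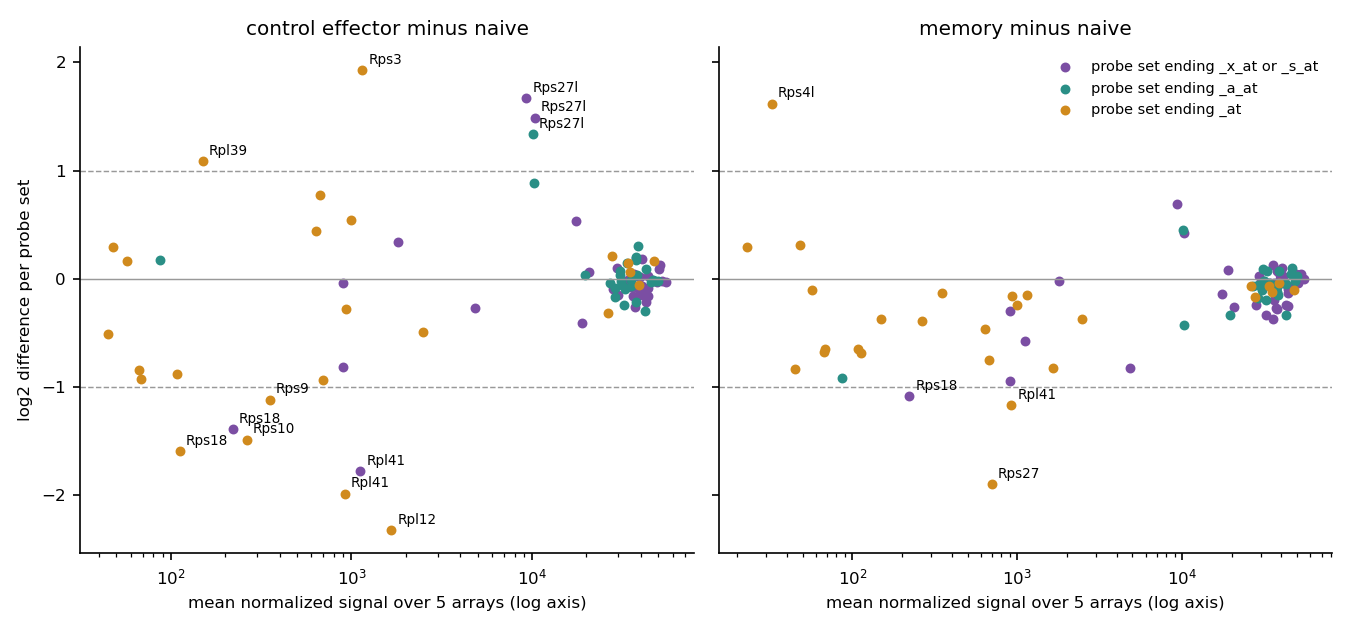
Log2 difference of each ribosomal protein probe set against its mean normalized signal over the 5 arrays (log axis), for control effector minus naive (left) and memory minus naive (right), coloured by the suffix of the probe set's name; dashed lines mark 2-fold. Bright probe sets gather near 0, and every probe set past 2-fold has a mean signal of at most 10319.8.

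**Figure D4:**
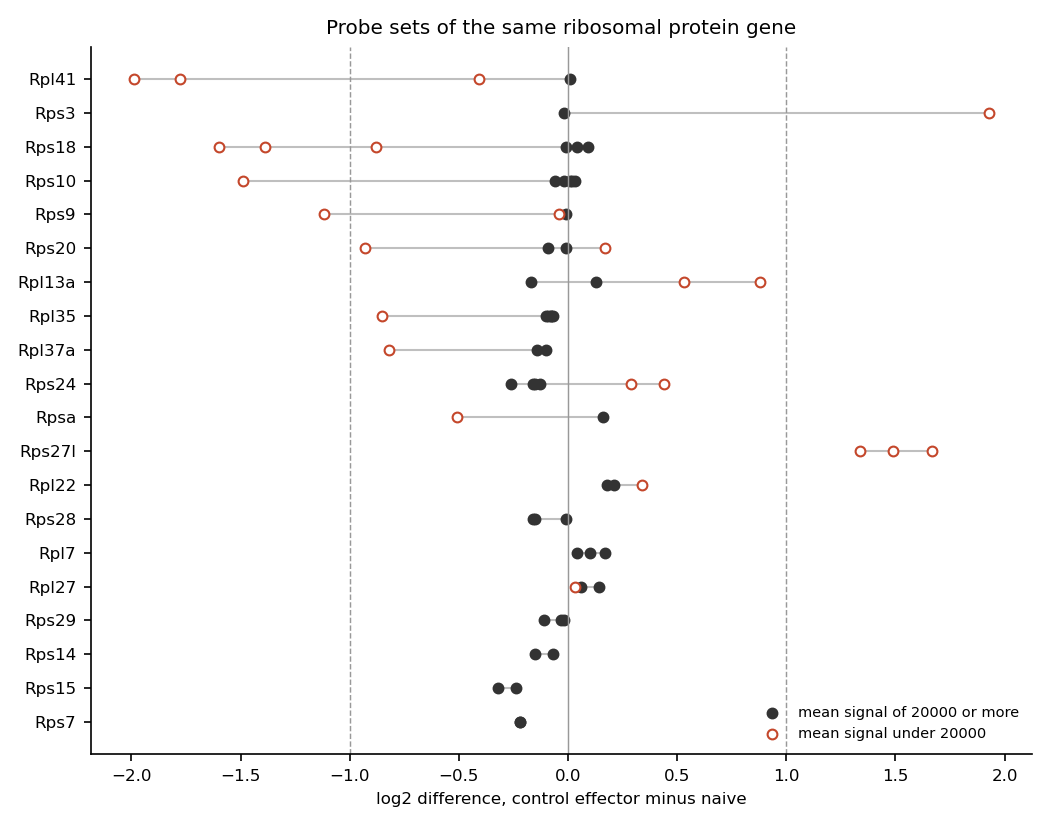
Control effector minus naive log2 difference of every probe set above the floor, for the 20 ribosomal protein genes with 2 or more such probe sets, 1 row per gene, with filled points for mean signals of 20000 or more and open points for lower ones; dashed lines mark 2-fold. In 7 of the 20 genes the probe sets lie at least 2-fold apart.

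In effector cells treated with TOFA the ribosomal protein genes were close to the control effector cells. Of 12850 genes compared, 2.47% were at least 2-fold higher and 2.14% at least 2-fold lower on the TOFA array. Of 44 ribosomal protein genes, none was higher and 1 (Rpl39) was lower, with a median of 0.00. Rpl39 had 321.5 on the control effector and 40.2 on the TOFA array, the latter under the floor, so it was at least 7.41-fold lower. It had 120.2 on the Rap array and 116.4 on the memory array, and is known here from a single dim probe set. Bright genes ranged from -0.16 (Rps26, 27219.3 against 24424.9) to 0.14, with a spread of 0.07, against 0.18 among the other 58 genes of 20000 or more and 0.09 among the 20 that reached the members' lowest mean.

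With the deposited signals all 34 bright genes were below 0 in TOFA minus control effector cells, with a median of -0.13. That shift was shared beyond the ribosome: 43 of the 58 other genes of 20000 or more were below 0 too, with a median of -0.10. The TOFA array held the lowest signal for 34 of the 45 ribosomal protein genes above the floor with the deposited signals, for 10 after quantile normalization and for 1 after division by the array median. A lower signal of the whole group on the TOFA array therefore rested on the scaling.

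Several dimmer members were lower on the TOFA array by less than 2-fold. Rps25, which viral internal ribosome entry sites need, had 3331.4 on the naive, 2374.9 on the control effector, 2325.3 on the Rap, 1770.4 on the TOFA and 2571.7 on the memory array, with a TOFA minus control effector difference of -0.42. Rpl37 had 6041.5, 4993.3, 5921.3, 3747.8 and 3409.8 and a difference of -0.41. Rps27 was higher, by 0.55. Their probe sets are single, so none had a check by another probe set.

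Rap effector cells and control effector cells also had close signals for the bright genes. Of 12839 genes compared, 1.79% passed 2-fold upward and 3.91% downward. Of 44 ribosomal protein genes none was higher and 1 was lower, again Rpl39, at 120.2 against 321.5, a difference of -1.42. The bright genes had a median of 0.00, a range of -0.11 to 0.12 and a spread of 0.05, against 0.19 among the other 58 genes of 20000 or more and 0.13 among the 20 that reached the members' lowest mean. With the deposited signals 27 of the 34 were above 0, with a median of 0.05. With division by the array median 33 of 34 were above 0, with a median of 0.09, and the Rap array was the highest of the 5 for 20 of them. The other 58 genes had the same medians under both scalings, 0.05 and 0.09. Rpl39l, a paralog of Rpl39 best known from the testis, had 100.7 on the Rap array and 46.9, 52.3, 55.9 and 30.6 on the naive, control effector, TOFA and memory arrays, a Rap minus control effector difference of 0.94 near the floor. Rps6 was 1446.5 on the Rap array, its highest of the 5, a difference of 0.41.

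The TOFA and Rap arrays share the control effector array as their reference, so they were also set against each other directly. Of 12783 genes compared, 3.25% were 2-fold or more above and 1.35% below on the TOFA array. No ribosomal protein gene was higher and Rpl39 was lower, at least 2.77-fold, with a median over 44 genes of 0.00. Bright genes ranged from -0.21 (Rps26) to 0.10. With the deposited signals all 34 were below 0, with a median over the ribosomal protein genes of -0.18, and 48 of the 58 other genes of 20000 or more were below 0 too.

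Between memory and naive cells, 12.3% of 13014 genes passed 2-fold upward and 4.13% downward. Of 45 ribosomal protein genes compared, 1 was higher (Rps4l) and 1 was lower (Rps27), and the median was -0.06, against -0.05 over all genes. Rps4l had 133.5 on the memory array and 4.76 to 10.9 on the other 4, all under the floor, and was at least 3.08-fold higher. Rps27 had 312.5 on the memory against 1167.6 on the naive array, a difference of -1.90. Among bright genes Rps3a1 was lowest at -0.34, and Rpl35, singled out after its values were seen, was lower on all of its 5 bright probe sets, by -0.37 to -0.18. The bright genes had a spread of 0.10, against 0.33 among the other 58 genes of 20000 or more and 0.19 among the 20 that reached the members' lowest mean. With signals divided by the array median, all 34 bright genes were lowest on the memory array, with a memory minus naive median over the ribosomal protein genes of -0.51, against -0.36 over all genes. The memory array had the highest median signal of the 5 as deposited (99.5, against 63.1 to 74.2), by which that scaling divides, and the macrophage and B cell markers given above moved with it.

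Between memory and control effector cells, 14.2% of 13239 genes passed 2-fold upward and 14.1% downward. Of 45 ribosomal protein genes 2 were higher (Rpl12, 2.83-fold, and Rps4l, at least 3.08-fold) and 3 were lower (Rpl14, 2.86-fold, Rpl39, 2.76-fold, and Rps27l, 2.1-fold). Rpl14, a large subunit protein, had 525.2 on the naive, 895.2 on the control effector, 860.1 on the Rap, 755.8 on the TOFA and 313.1 on the memory array. It was highest on the 3 effector arrays, as Rps27l was, while Rpl12 was lowest there. Bright large subunit genes had a median of -0.16 and bright small subunit genes one of 0.00. The gap of -0.16 was -0.16 with the deposited signals too. Division by the array median shifts all bright genes alike, so it cannot change this gap. Rpl10a, outside the rule for named genes and singled out after its values were seen, was the lowest bright gene at -0.32, with 39945.3 on the control effector and 32015.2 on the memory array. Comparisons that share the control effector array, as this one does with that of control effector and naive cells, are not independent of each other.

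Apart from Rps27l, described above, members with further roles gave small differences on their bright probe sets. Rpl11, one of the pair that binds MDM2, had 30884.1 on the naive, 32333.1 on the control effector, 31820.6 on the Rap, 29478.2 on the TOFA and 28614.5 on the memory array, with a TOFA minus control effector difference of -0.13. Rpl13a, which in myeloid cells represses translation of inflammatory messages once released from the ribosome, had 48924.8, 53675.5, 50747.0, 51036.7 and 50125.8 on its brightest set. Its other bright set had 30970.1 on the naive and 27443.8 on the control effector array. The control effector minus naive difference was thus -0.17 on that set and 0.13 on the brightest. A dimmer set of Rpl13a had 7386.4 on the naive, 13619.0 on the control effector, 11499.2 on the Rap, 13335.8 on the TOFA and 5496.1 on the memory array. This set differed by 0.88 in control effector minus naive cells and by -1.31, past 2-fold, in memory minus control effector cells. Another dimmer set differed by 0.53 and -0.67. Rps14, whose loss on 1 chromosome drives the anaemia of the 5q deletion syndrome, had 40600.7, 38791.0, 40684.9, 42190.6 and 40600.7. Rpl3l, the muscle paralog of Rpl3, was at 4.03 to 39.7 and thus under the floor on all 5 arrays.

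Bright genes with and without a pyrimidine run near the annotated start, as defined above, had close medians. The genes with a run include some whose run ends before that start, such as Rpl10a and Rpl6. Bright signals also lie near the top of the range, so the grouping is not a test of the TOP motif. The 17 bright genes with a run had medians of -0.02 in control effector minus naive, 0.00 in TOFA minus control effector and 0.01 in Rap minus control effector cells. The 12 with a window but no run had 0.00, 0.01 and 0.00. In memory minus naive cells the medians were -0.04 with and -0.06 without a run. In the same windows, CCGGAAG, the core bound by factors such as GABP, was found on either strand in 42.9%, against 8.86% of all windows. ATGGCG, part of the motif of YY1, was found in 28.6% against 8.93%. Both motifs were chosen after the sequences were seen.

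Probe sets with several platform symbols were not members, but they carried ribosomal proteins that the rule missed. There were 110, with 46 ribosomal protein symbols, of which 31 had no member probe set. In control effector minus naive cells their median was -0.02 over 108 compared. None was at least 2-fold higher and 6 were lower, where 14.3% and 12.3% of all probe sets with 1 symbol were. The 78 with mean signals of 20000 or more ranged from -0.74 to 0.33. Of 6 ribosomal proteins that the rule leaves out by name, Fau, Rpl7l1 and Rpl22l1 were measured and none was 2-fold apart in any comparison. Fau, the fusion of a ubiquitin-like protein and Rps30, had 36228.9 on the naive and 37076.1 on the control effector array.

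After quantile normalization, the mitochondrial ribosomal protein genes had medians further from 0 than the cytosolic ones in 5 of the 6 comparisons. Between memory and naive cells theirs was nearer to 0 (0.02 against -0.06). With the deposited signals it was also nearer in TOFA minus control effector cells (0.07 against -0.13). Most cytosolic genes had signals near the top of the range, where compression was not tested. Of 76 genes for mitochondrial ribosomal proteins, which serve translation inside mitochondria, 9 were higher by 2-fold or more on the control effector than on the naive array and none was lower, 68 of 76 were above 0 (6784 of 13062 over all genes), and the median was 0.45. The 9 of 76 are a smaller share than the 15.9% of all genes. In memory minus control effector cells 9 of 76 were lower, against 14.1% of all genes, and none higher, with a median of -0.42. The median was 0.05 in TOFA minus control effector cells. In Rap minus control effector cells it was -0.15 with 58 of 76 below 0, and in TOFA minus Rap cells 0.20 with 60 of 76 above 0, with none past 2-fold in these 3 comparisons.

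Of 20 further genes with TOP messages, mostly translation factors, 19 were measured. In control effector minus naive cells 3 were at least 2-fold higher, a share near the 15.9% of all genes, and none lower, with a median of 0.09 (0.26 with the deposited signals). The 3 were Vim (3.81-fold), which encodes the filament protein vimentin, Ipo7 (2.15-fold), an import receptor, and Nap1l1 (2.14-fold), a histone chaperone. In memory minus control effector cells 2 of 19 were at least 2-fold lower, Vim and Ipo7, against 14.1% of all genes. The median was -0.30 (-0.47 with the deposited signals). None passed 2-fold in TOFA or Rap minus control effector cells, where at most 3.91% of all genes did in either direction. None did between memory and naive cells either, where 12.3% of all genes were higher and 4.13% lower.

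Of 30 ribosome assembly factors, 29 were measured. Between control effector and naive cells 1 was at least 2-fold higher and 1 lower, where 15.9% and 11.4% of all genes were. The higher one was Nhp2, a protein of pseudouridylation particles (2.11-fold). The lower one was Mdn1, an ATPase that strips factors from the large subunit precursor (3.29-fold). The median was -0.06. In TOFA minus control effector cells 26 of 29 were above 0 (6595 of 12850 over all genes), with a median of 0.27 and none past 2-fold. In Rap minus control effector cells 21 of 29 were above 0 (6340 of 12839 over all genes) and 8 below, with a median of 0.16 and none past 2-fold. These medians were 0.29 and 0.18 with the deposited signals. Both comparisons use the same control effector array, so they are not independent of each other. The ribosomal protein medians in the same comparisons were 0.00 after quantile normalization, and -0.13 and 0.05 with the deposited signals. They come mostly from signals near the top of the range.

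Of 22 regulators of ribosomal protein genes and translation, 21 were measured. In control effector minus naive cells 3 were at least 2-fold higher and 2 (Tsc1 and Mycn) lower, shares near the 15.9% and 11.4% of all genes. Myc, the transcription factor that drives ribosome production, had 2385.4 on the naive, 5075.7 on the control effector, 8783.3 on the Rap, 4884.4 on the TOFA and 2329.0 on the memory array. Its partner Max had 119.6, 899.0, 1749.1, 1274.9 and 226.6. Both were higher on all 3 effector arrays, and highest on the Rap array.

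Eif4ebp1, the repressor of cap-dependent translation that mTORC1 inactivates, had 416.3 on the naive, 5844.8 on the control effector, 2989.2 on the Rap, 7474.7 on the TOFA and 1219.9 on the memory array. It was 2.5-fold higher on the TOFA than on the Rap array, the only regulator past 2-fold between those arrays. Mtor itself had 1090.9 to 1167.2 on the 5 arrays, and Larp1 2088.3 to 3247.8, highest on the Rap array.

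Of 14 genes of ribosome stress and quality control, 10 were measured. Pelo, which rescues stalled ribosomes, had a 2.65-fold higher signal on the control effector than on the naive array. Map3k20, the kinase that senses collided ribosomes, had 39.3 on the naive, 210.5 on the control effector, 84.7 on the Rap, 133.1 on the TOFA and 316.6 on the memory array. It was the only one of the 10 past 2-fold in Rap minus control effector cells, 2.49-fold lower, and was highest on the memory array, where the markers of other cell types were highest.

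**Figure D5:**
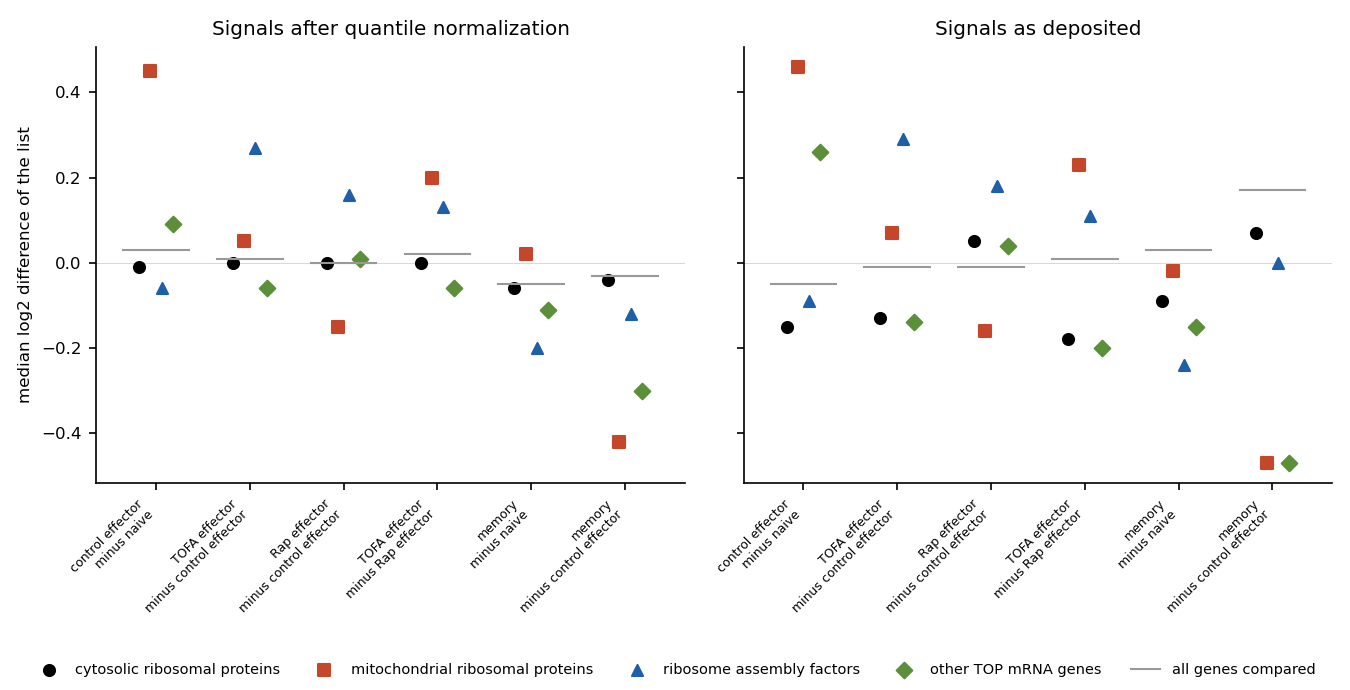
Median log2 difference of each gene list in the 6 comparisons, after quantile normalization (left) and with the signals as deposited (right); grey bars are the medians of all genes compared. The mitochondrial ribosomal protein median of 0.45 in control effector minus naive cells stands above the cytosolic one of -0.01, and the cytosolic medians move below 0 on the right in TOFA minus control effector (-0.13) and TOFA minus Rap cells (-0.18).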

How the data were processed

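Total RNA of 5 samples was hybridised to Affymetrix mouse arrays, 1 per group. The deposited values are linear intensities per probe set, made by the authors with GCOS and Affymetrix Expression Console per the submitters' processing notes. The signal algorithm and the software versions were not given in the sources used here. Their mean after trimming 2% at each end was 500.003 on every array. How the signal was computed bears on low values most.

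Arrays were quantile normalized, values under the 40th percentile were raised to 43.4, and log2 differences were taken; genes at the floor on both arrays were not compared. Of 45101 probe sets, 64 controls were set aside. The platform's 2016 annotation gave 34945 probe sets 1 symbol, 932 several and 9160 none, and only the first kind were used. Python 3.11.15, numpy 2.4.6, pandas 2.3.3, scipy 1.17.1 and matplotlib 3.10.9 were used, and the steps were tested on simulated data. The precision is limited by the single array per group.

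Genes named were drawn from 29 symbols chosen in advance (19 measured), the 4 furthest members each way per comparison, and all members 2-fold apart. Not all of the furthest members are described. Other members whose differences are described are said to be singled out. The members and lists were chosen with earlier results of these data known. Alternatives were the scaling, the floor, a higher signal minimum, an added constant, the choice of probe set and probe sets with shared probes. Protein sequences of paralogs were not analysed here.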

Additional observations from a re-analysis of the deposited data

How the results depend on the processing

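No named gene's difference of 2-fold or more changed sign. Of 1190 values under the alternatives, 1152 moved by no more than the spread between probe sets of 1 gene and 38 moved further. Keeping only genes with higher signals cannot move a gene's value. This fixed 131 (60th percentile) and 92 (20000 or more) of the 1152 in advance. A bright gene could change sign and still count among the 1152, as Rpl13a did (0.13 to -0.12, control effector minus naive, deposited signals). Smaller differences did turn: 89 of the 1190 changed sign, 30 with the deposited signals (reported sizes of at most 0.16), 37 with division by the array median (at most 0.42), 12 with the mean of all probe sets and 10 without shared probe sets. The group medians moved with scaling. With the deposited signals they were -0.15 (control effector minus naive), -0.13 (TOFA minus control effector), -0.18 (TOFA minus Rap) and 0.07 (memory minus control effector), and with division by the array median -0.51 (memory minus naive) and -0.46 (memory minus control effector). The number of genes lowest on the TOFA array went from 10 to 34 and 1 in the same order. Counts of members past 2-fold moved as follows. Leaving out probe sets ending _x_at or _s_at gave 5 for control effector minus naive. With both arrays at or above the 60th percentile they were 0, 0, 0, 1 and 3 for TOFA minus control effector, Rap minus control effector, TOFA minus Rap, memory minus naive and memory minus control effector. A floor at the 20th percentile gave 2 for Rap minus control effector and 2 for TOFA minus Rap, and one at the 60th gave 0 for TOFA minus Rap and 1 for memory minus naive. An added constant in place of the floor gave 0 for TOFA minus Rap. Division by the array median gave 5 for memory minus naive and 8 for memory minus control effector. Of the alternatives chosen after seeing the data, counting every probe set singly gave 12 (control effector minus naive), 4 (memory minus naive) and 10 (memory minus control effector), and members with means of 20000 or more gave 0 in all 6 comparisons. The cause of these moves was not tested, apart from the fewer genes that stricter minimums leave. No paired analysis was possible because each group has 1 array, and leaving out a replicate was not possible for the same reason. Near the floor, signals such as those of Rpl39, Rpl39l and Rps4l carry the least information.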
